A study of Mus musculus with 26 samples.

Results

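The collagen genes of the mouse were examined in 24 RNA-seq libraries from 2 mouse models of acute myeloid leukaemia. Members were all genes of the count table whose symbol is Col, a number, a and a number (Col1a1, Col4a2 and so on), and 44 of the 48795 genes in the table met this rule. Of these, 38 had at least 1 count in some library, 22 had enough counts to be tested, and 16 reached a mean of at least 1 CPM (a library's counts on a per-million scale of its total) in at least 1 group.

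The cells were C57BL/6 myeloid progenitors transformed by Hoxa9 with Meis1 (H9M) or by MN1, grown with interleukin-3, interleukin-6 and stem cell factor. In each model there were control and LSD1 knockout cells (Kdm1a encodes the histone demethylase LSD1), untreated or treated with all-trans retinoic acid (ATRA) at 1 µM, which gives 8 groups of 3 libraries. Knockout was induced with 4-hydroxytamoxifen at 0.1 µM for 72 h; whether control cells received it is not stated, the strain label reads CreERT2-;LSD1TM1Schuele for every RNA library, knockouts included, and the ATRA treatment time is not given. The labels do not call the replicates separate cultures, so p-values measure only the spread between these libraries, which may be technical. In the labels, the library identifiers of all H9M samples end in the same code and those of all MN1 samples in a different code, whose meaning is not stated. Differences of level between the models and any difference that goes with this code cannot be told apart.

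Collagens are proteins of the extracellular matrix in which 3 alpha chains wind into a triple helix, and each gene encodes 1 alpha chain. A chain is usually secreted only as part of a complete trimer, and some trimers need chains from more than 1 gene: type I collagen is built mainly from Col1a1 and Col1a2 chains, type IV of basement membranes from Col4a1 and Col4a2, and type VI microfibrils from Col6a1, Col6a2 and a further chain such as Col6a3. Fibroblasts, osteoblasts, chondrocytes and endothelial cells are the main producers, whereas blood cells mostly bind and degrade collagen in the marrow. Counts of a gene do not show whether the protein was made or secreted, and in these bulk libraries fewer expressing cells and less RNA per cell cannot be told apart.

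Kdm1a had group means of 139 and 148 CPM in H9M controls without and with ATRA and 0.962 and 11.1 CPM in the matching knockouts, and 191, 197, 1.42 and 2.14 CPM in MN1 cells, in the order control, control with ATRA, knockout, knockout with ATRA. The H9M knockout with ATRA thus retained 7.51% of its control's Kdm1a level, against 0.693%, 0.747% and 1.09% in the other 3 knockout groups. Cyp26a1, a retinoic acid target, was at most 0.0393 CPM (group means) without ATRA; with it, group means were 14.6 CPM in H9M control, 30.3 CPM in H9M knockout, 1.84 CPM in MN1 control and 8.62 CPM in MN1 knockout cells. Library totals ran from 22402558 to 32674685 counts. The haematopoietic markers Ptprc (163 to 385 CPM over group means) and Mpo (631 to 8253 CPM) were abundant in all 8 groups. Among markers of other collagen-producing cells, Dcn, Lum and Postn of fibroblasts, Cdh5 of endothelium, Acan and Sox9 of cartilage and Ibsp of osteoblasts had no count in any of the 24 libraries, but other markers on these lists did. Group means were 44.5 to 148 CPM for Runx2 and 12 to 38.1 CPM for Spp1 of the osteoblast list, 400 to 879 CPM for Pecam1 of the endothelial list and up to 1.69 CPM for Matn1 of the cartilage list. The 10 fibroblast and stromal markers summed to 4.61 to 6.74 CPM in H9M libraries, mostly Lepr and Fbn1, and to 13.6 to 19.4 CPM in MN1 libraries, mostly Pdgfrb (group means 13.1 to 16.1 CPM). The summed levels of 6 further lists did not overlap between the models. They were higher in MN1 for mast cells (at most 0.133 CPM in H9M and 777 to 1856 CPM in MN1, mostly Cpa3) and megakaryocytes (2.04 to 8.07 and 103 to 148 CPM). The megakaryocyte sum in MN1 was nearly all Itga2b (group means 101 to 139 CPM, at most 0.126 CPM in H9M). Pf4 of this list had group means of 1.68 to 6.93 CPM in H9M and 3.02 to 4.5 CPM in MN1. Gp9 had 0.703 to 0.991 and 0.398 to 0.958 CPM, so neither separated the models. Sums were also higher in MN1 for osteoblasts (56.2 to 86.9 and 138 to 184 CPM, mostly Runx2) and cartilage (at most 0.0446 and 0.0655 to 1.91 CPM, all Matn1). Summed levels were lower in MN1 for smooth muscle (9.78 to 22.5 and 0.189 to 1.46 CPM, mostly Acta2). They were also lower for haematopoietic cells (3080 to 11469 and 870 to 2732 CPM, mostly Mpo and Elane in H9M and Mpo in MN1). The endothelial list overlapped (593 to 898 and 393 to 640 CPM, nearly all Pecam1). The part of these marker genes in the collagen values was not tested.

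The promoters of 4 members whose levels set the groups apart are shown first, as 300 bases around the annotated start (250 before, 50 after) from RefSeq on GRCm38.p6. Col4a1 and Col4a2 lie head to head on chromosome 8: the starts used here are 21 bases apart on opposite strands, and their windows share 78 bases. The starts used for Col4a1 (11312826) and Col25a1 (130180845) lie inside the gene ranges given below and not at their ends. The whole Col25a1 window lies inside its gene range. Col1a2 and Col25a1 are shown because they moved differently in the 2 models. Capitals mark 2 short motifs on either strand, the GC box with the letters GGGCGG and the CCAAT box, each also marked where its reverse complement stands.
Col4a1, minus strand, chr8:11312777-11313076: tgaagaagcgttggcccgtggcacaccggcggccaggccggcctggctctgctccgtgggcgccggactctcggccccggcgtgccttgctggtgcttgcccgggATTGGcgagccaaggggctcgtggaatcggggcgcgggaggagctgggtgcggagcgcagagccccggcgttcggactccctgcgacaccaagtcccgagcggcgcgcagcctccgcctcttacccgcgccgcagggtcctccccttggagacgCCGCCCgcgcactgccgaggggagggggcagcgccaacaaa
Col4a2, plus strand, chr8:11312555-11312854: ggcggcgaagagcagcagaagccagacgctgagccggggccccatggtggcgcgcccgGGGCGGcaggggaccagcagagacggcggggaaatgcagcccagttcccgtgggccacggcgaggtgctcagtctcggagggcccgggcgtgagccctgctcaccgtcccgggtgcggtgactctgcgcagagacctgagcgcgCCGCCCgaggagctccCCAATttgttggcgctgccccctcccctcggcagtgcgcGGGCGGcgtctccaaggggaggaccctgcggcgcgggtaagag
Col1a2, plus strand, chr6:4505368-4505667: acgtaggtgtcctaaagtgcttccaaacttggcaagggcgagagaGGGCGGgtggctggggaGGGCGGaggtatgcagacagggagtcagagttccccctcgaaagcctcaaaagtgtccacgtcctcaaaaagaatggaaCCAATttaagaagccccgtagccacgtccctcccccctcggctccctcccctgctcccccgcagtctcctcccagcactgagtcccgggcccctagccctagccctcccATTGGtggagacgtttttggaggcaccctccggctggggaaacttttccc
Col25a1, plus strand, chr3:130180595-130180894: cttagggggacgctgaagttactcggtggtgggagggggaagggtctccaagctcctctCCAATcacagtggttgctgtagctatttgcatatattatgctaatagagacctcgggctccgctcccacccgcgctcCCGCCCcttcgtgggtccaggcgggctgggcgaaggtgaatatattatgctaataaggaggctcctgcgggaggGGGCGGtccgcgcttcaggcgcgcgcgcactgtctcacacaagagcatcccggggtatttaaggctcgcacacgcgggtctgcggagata

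The Col4a1 and Col4a2 windows had a GC content of 74.0% and 73.7% with 37 and 33 CpG dinucleotides, and the Col1a2 and Col25a1 windows had 61% and 60% with 13 and 23. The median over all 32851 starts of the promoter table was 52.7% with 7 CpG, and over the 38 starts of the 35 members found in that table it was 59.8% with 11.5 CpG. The GC box occurred in 23 of the 38 member windows (60.5%) and in 35.7% of all windows, and the CCAAT box in 34.2% and 37.4%. The letters AGGTCA, which nuclear receptors including retinoic acid receptors can bind, occurred in 21.1% of member windows and 16.3% of all windows, and in none of the 4 windows printed. TATAAA occurred in 13.2% and 13.6%, and GAGGAAGT, a form of the PU.1 site, in 0 of 38 and 3.2%. Each motif was counted on both strands without regard to overlap with another, and a match is a description of these letters only. The members not found in the promoter table were Col1a1, Col2a1, Col4a3, Col5a2, Col9a3, Col12a1, Col14a1, Col22a1 and Col26a1.

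Most members of every class had at least 1 count, and the number with enough counts to be tested is given by class. Detected members were 8 of 11 fibrillar, 8 of 9 network-forming, 8 of 9 FACIT, 5 of 6 beaded-filament and 4 of 4 transmembrane collagens, and no test between classes was made. Fibrillar collagens, which form the rope-like fibres of connective tissue, had 5 of 11 members tested, and Col3a1, Col11a1 and Col24a1 had no count. Network-forming collagens had 3 of 9 tested, FACIT collagens, which sit on the surface of fibrils, 3 of 9, and beaded-filament collagens 3 of 6. Transmembrane collagens had 3 of 4 tested and the multiplexins Col15a1 and Col18a1 2 of 2. Col7a1 of anchoring fibrils and the members Col26a1 and Col28a1 were also tested. The 6 members with no count were Col3a1, Col6a2, Col8a2, Col11a1, Col22a1 and Col24a1, and 16 members had between 1 count (Col4a5, Col4a6) and 89 counts (Col5a2) over all 24 libraries, too few to test. The others of these were Col2a1, Col4a3, Col6a4, Col6a5, Col8a1, Col9a1, Col9a2, Col9a3, Col10a1, Col12a1, Col16a1, Col17a1 and Col27a1, none above 65 counts.

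**Figure D1:**
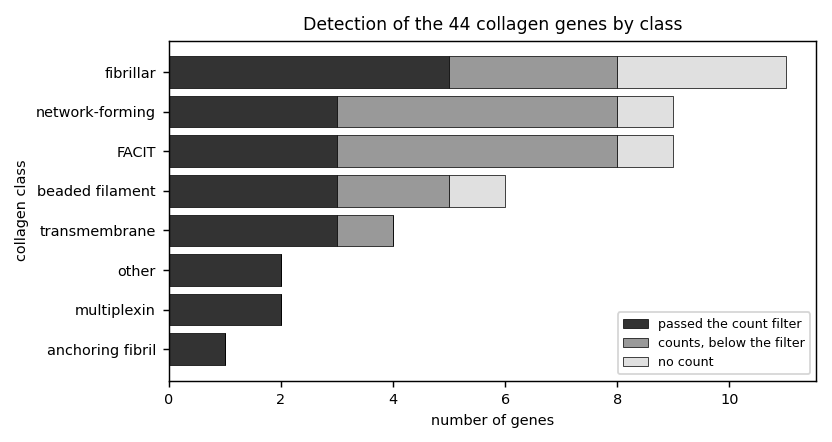
Number of collagen genes (x axis) in each structural class (y axis), split into members that passed the count filter, members with counts below it and members with no count. Fibrillar collagens had 5 of 11 members past the filter and network-forming and FACIT collagens 3 of 9 each.

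More collagen genes were expressed in MN1 than in H9M cells. The number of members at a mean of at least 1 CPM was 6, 6, 7 and 9 in H9M control, control with ATRA, knockout and knockout with ATRA, and 10, 12, 10 and 10 in the same MN1 groups. As a share of the 44 members this is 13.6% to 27.3%, beside 23.1% to 24.5% of all genes in the table at the same level. In all 8 groups 5 members were at this level (Col4a1, Col4a2, Col11a2, Col15a1 and Col25a1). Only in H9M groups it was reached by 3 (Col6a6, Col14a1 and Col20a1), and only in MN1 groups by 7 (Col1a2, Col6a3, Col13a1, Col18a1, Col19a1, Col26a1 and Col28a1); the model differences themselves are tested below. The remaining expressed member, Col1a1, passed 1 CPM in H9M knockout cells with and without ATRA and in MN1 knockout cells without it. The members' summed level was 115 ± 4.82, 116 ± 2.2, 108 ± 0.772 and 144 ± 3.3 CPM (SD, n = 3) in the 4 H9M groups and 146 ± 5.13, 165 ± 6.43, 228 ± 4.74 and 237 ± 2.01 CPM in the 4 MN1 groups. A few genes made most of this sum. Col4a2 was 40.7% to 56% and Col11a2 30.7% to 37.8% of it in H9M groups, and Col4a1 was 48.7% to 63% in MN1 groups. Col14a1 was 16.6% in H9M knockout cells with ATRA. Counts of long genes weigh more in the sum and in these shares. Lengths were not corrected, so levels are compared below within a gene and not between genes.

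**Figure D2:**
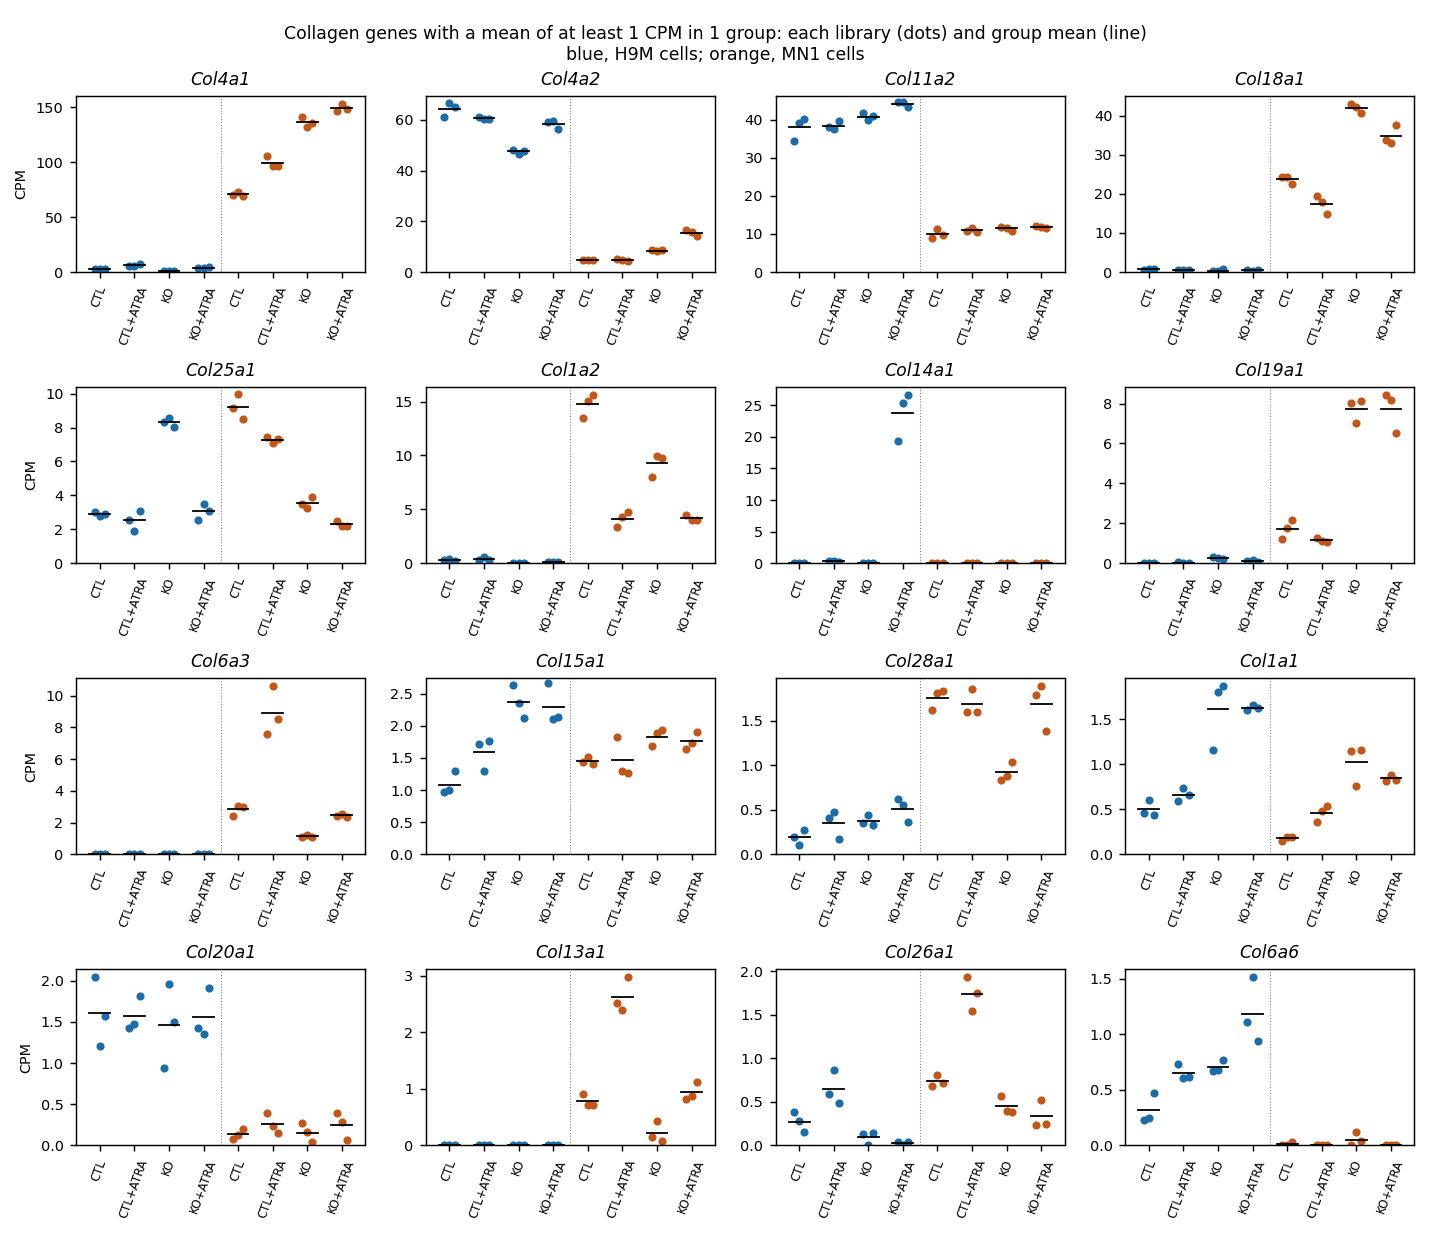
CPM (y axis, each panel with its own linear scale) of the 16 expressed collagen genes in each library (dots) of the 8 groups (x axis), with group means as lines; H9M cells are blue and MN1 cells orange. Col4a2 and Col11a2 are high in H9M cells, Col4a1, Col18a1 and Col1a2 in MN1 cells, and Col14a1 only reaches 19.4 to 26.6 CPM in H9M knockout cells with ATRA.

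The untreated controls of the models were compared first. In MN1 against H9M controls 19 of the 22 tested members were called (adjusted p under 0.05, edgeR's quasi-likelihood test), 12 higher and 7 lower in MN1, where 73.5% of all 14663 tested genes were called. The members' median log2 fold change was 1.04, and 18 of 22 (81.8%) differed at least 2-fold against 27.1% of all tested genes. Members were tested only if they had enough counts in some group, which favours members that differ between groups.

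The basement membrane pair Col4a1 and Col4a2 had opposite levels in the 2 models. Col4a1 (chromosome 8, 11198423 to 11312889) had 2.89, 2.41 and 2.63 CPM in the H9M control libraries and 70.2, 72.9 and 69.6 CPM in those of MN1, 25.2-fold higher in MN1 (log2 fold change 4.66 ± 0.08 SE, adjusted p = 6.11e-30). Col4a2 (chromosome 8, 11312805 to 11449287) had 61.1, 66.5 and 65.3 CPM in controls of H9M and 4.79, 4.81 and 4.72 CPM in those of MN1, 14.3-fold lower in MN1 (log2 fold change -3.84 ± 0.06, adjusted p = 4.09e-30). The groups did not overlap for either gene, so genes that share a start region stood in reversed order in the 2 models. The ratio of Col4a2 to Col4a1 counts, which is not corrected for length and is compared only across groups, was 24.5 ± 3.23 in H9M controls and 0.0673 ± 0.00115 in MN1 controls (SD, n = 3). Over all 24 libraries it lay between 8.72 and 46.8 in H9M and between 0.0444 and 0.113 in MN1. The 2 genes overlap each other at their starts, and Col4a1 also overlaps Gm15418 and Gm32709 and Col4a2 overlaps Gm46030; the sources used here do not say how such reads and their strand were counted.

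**Figure D3:**
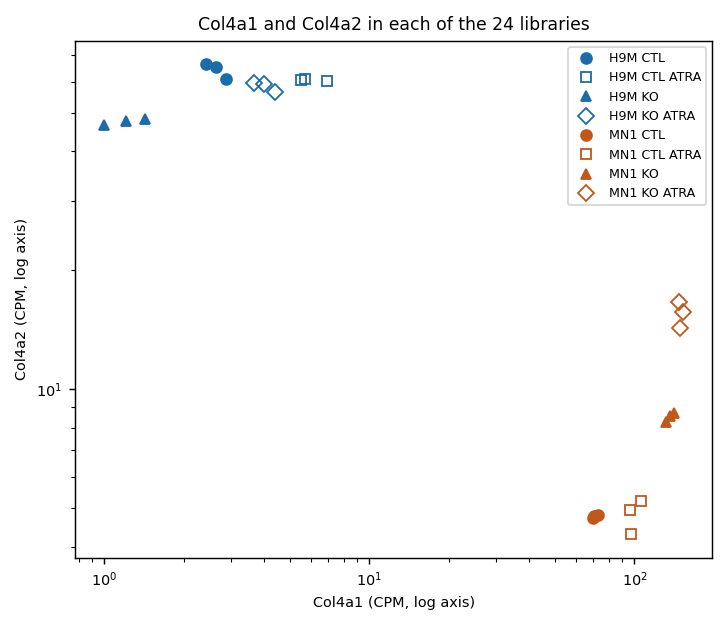
Col4a1 (x axis) against Col4a2 (y axis) in CPM on log axes, 1 symbol per library, blue for H9M and orange for MN1. The H9M libraries lie at the upper left and the MN1 libraries at the lower right, and within MN1 the knockout libraries (triangles and diamonds) lie above and to the right of the controls.

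Knockout and ATRA moved the pair within these bounds. In H9M cells without ATRA the knockout libraries had 1.43, 0.998 and 1.21 CPM of Col4a1, below all 3 controls (log2 fold change -1.12 ± 0.16, adjusted p = 1.02e-06), and 48.3, 46.7 and 47.7 CPM of Col4a2, also below all controls (-0.42 ± 0.05, adjusted p = 4.42e-09). ATRA raised Col4a1 in H9M controls to 5.73, 5.5 and 6.91 CPM (1.23 ± 0.11, adjusted p = 6.85e-10) and in H9M knockout cells to 3.99, 3.68 and 4.39 CPM (1.77 ± 0.15, adjusted p = 6.72e-11). These rises did not overlap the untreated libraries. Col4a2 in H9M cells with ATRA was 61.1, 60.5 and 60.3 CPM in controls and 59.1, 59.7 and 56.4 CPM in knockout cells, where it rose from the untreated knockout (0.32 ± 0.05, adjusted p = 2.32e-06). The H9M ratio of Col4a2 to Col4a1 counts was therefore lowest with ATRA, 10.1 ± 1.23 in controls and 14.6 ± 1.7 in knockout cells, against 40 ± 6.53 in untreated knockout cells.

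In MN1 cells both chains were higher after knockout. Col4a1 had 141, 132 and 136 CPM in untreated knockout cells (log2 fold change 0.94 ± 0.05, adjusted p = 4.46e-17) and 147, 153 and 148 CPM in knockout cells with ATRA, against 106, 96.1 and 96.8 CPM in controls with ATRA (0.56 ± 0.04, adjusted p = 4.14e-12). Col4a2 had 8.73, 8.25 and 8.56 CPM in untreated knockout cells (0.83 ± 0.08, adjusted p = 4.29e-10) and 16.6, 15.7 and 14.3 CPM in knockout cells with ATRA, against 5.2, 4.96 and 4.3 CPM in controls with ATRA (1.65 ± 0.07, adjusted p = 3.09e-18). The knockout effect differed between the models for both genes, by 2.05 ± 0.17 for Col4a1 and 1.25 ± 0.09 for Col4a2 on the log2 scale (adjusted p = 3.55e-11 and 4.4e-12). ATRA raised Col4a1 in MN1 controls by 0.47 ± 0.05 (adjusted p = 3.72e-09), less than in H9M controls (difference -0.76 ± 0.12, adjusted p = 4.6e-05), and raised Col4a2 only in knockout cells (0.82 ± 0.07, adjusted p = 7.77e-11; knockout by ATRA interaction 0.82 ± 0.11, adjusted p = 1.45e-05). Of the other network-forming members, Col4a4 had 0.199 ± 0.0841 CPM in controls of H9M and 0.823 ± 0.125 CPM in those of MN1 (SD, n = 3; log2 fold change 1.93 ± 0.43, adjusted p = 0.000223) and was called in no comparison of knockout or ATRA. Its divergent partner Col4a3 had 28 counts over all libraries.

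The LSD1 knockout called 10 of 22 members in H9M cells without ATRA, 6 higher and 4 lower, where 51.5% of all tested genes were called. With ATRA it called 9, 6 higher and 3 lower, beside 51.1% of all tested genes. In MN1 cells it called 15 without ATRA, 9 higher and 6 lower, and 10 with ATRA, 6 higher and 4 lower, beside 55% and 57.2% of all tested genes. The share of members called was therefore 45.5%, 40.9%, 68.2% and 45.5%, below the background in 3 of these comparisons and above it in MN1 cells without ATRA. The 22 include Col6a1, Col6a3 and Col13a1, which had no count in any H9M library and could not be called there. This lowers the H9M shares and weighs on the H9M medians. How many of all tested genes were in this position was not counted, so no deficit is read from the H9M shares. Median log2 fold changes of the tested members were 0, 0, 0.26 and 0.04, against at most 0.01 over all tested genes. Without ATRA, 7 members were called in both models. Col1a1, Col5a1 and Col19a1 were higher and Col1a2 lower after knockout in both, and Col4a1, Col4a2 and Col25a1 changed in opposite directions. The share of all tested genes called in both models was not counted. With 51.5% (H9M) and 55% (MN1) of them called, this overlap is a description and is not read as a trait of collagens. The knockout effect itself differed between the models for 9 members, 5 higher and 4 lower in MN1, beside 28.4% of all tested genes.

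ATRA called 6 of 22 members in H9M controls, all 6 higher, beside 25.2% of all tested genes, and 6 in H9M knockout cells, 4 higher and 2 lower, beside 29.4%. Col6a1, Col6a3 and Col13a1 are among the 22 and, with no H9M count, could not be called in H9M cells. In MN1 cells it called 9 in controls, 5 higher and 4 lower, and 7 in knockout cells, 4 higher and 3 lower, beside 21.8% and 18.8% of all tested genes. The count in H9M controls rested on single libraries: it was 3 without control replicate 1, 1 without control replicate 2 and 3 without ATRA replicate 1, and Col4a1 was the gene that stayed. The ATRA effect in controls differed between the models for 2 members, Col1a2 and Col4a1, both lower in MN1, beside 13.8% of all tested genes. The knockout by ATRA interaction was called for 3 members in H9M (2 higher, 1 lower) and 4 in MN1 (2 higher, 2 lower), beside 5.04% and 2.78% of all tested genes. The MN1 count was 2 when control replicate 2 or 3, knockout replicate 1, or replicate 1 or 3 of the knockout with ATRA was left out.

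**Figure D4:**
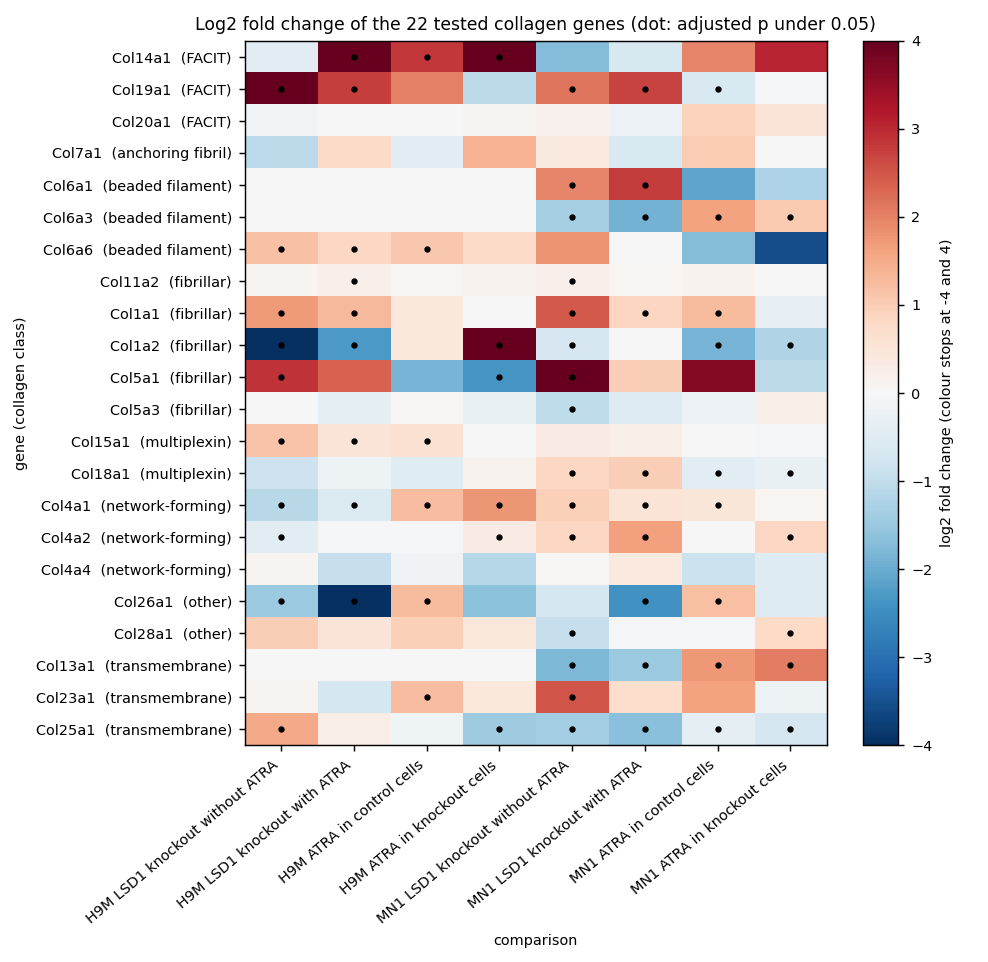
Log2 fold change (colour, stopping at -4 and 4) of the 22 tested collagen genes (y axis) in the 8 within-model comparisons of knockout and ATRA (x axis); a dot marks an adjusted p under 0.05. Fitted values of genes with no count in a group depend on the prior count; the row of Col14a1 is dark in H9M knockout with ATRA, and those of Col1a1, Col19a1 and Col25a1 carry calls in both models.

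Col14a1, a FACIT collagen of the fibril surface (chromosome 15, 55307644 to 55520803), was high in 1 group only. H9M knockout cells with ATRA had 19.4, 25.4 and 26.6 CPM from 438, 640 and 738 counts. H9M controls had 0.0771, 0 and 0.0392 CPM untreated and 0.33, 0.303 and 0.22 CPM with ATRA, untreated H9M knockout cells had 0.0893, 0 and 0 CPM, and no MN1 library passed 0.103 CPM. Every library of the combined group was thus far above every other library. The knockout effect with ATRA was 81.8-fold (log2 fold change 6.35 ± 0.23, adjusted p = 1.76e-19). Since the untreated knockout group had 2 counts in all, the ATRA effect in knockout cells is given as a ratio with its 95% counting interval, 248 to 7427 (adjusted p = 1.04e-19). Both of these counts were in H9M knockout replicate 1, and without it the group had no Col14a1 count. In H9M controls, which had 3 counts in all untreated, the ATRA ratio had an interval of 2.28 to 40 (log2 fold change 2.83 ± 0.82, adjusted p = 0.0105), and this call was lost without control replicate 2 (2.25) and was 3.69 without control replicate 1, with adjusted p between 0.00112 and 0.0597 over the 12 alternatives. The interaction was 6.77 ± 1.84 (adjusted p = 0.0274). It was 9.58 without H9M knockout replicate 1, and it was lost without H9M control replicate 1 (5.91), H9M control replicate 3 (6.75) or H9M knockout replicate 3 (6.19), with adjusted p between 2.91e-05 and 0.356 over the 18 alternatives. The group with high Col14a1 is also the knockout group with the most remaining Kdm1a, and the part of this in the result was not tested. Col14a1 overlaps Gm52209 and Gm18787.

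The type I collagen chains did not keep step. Col1a2 (chromosome 6, 4505618 to 4541543) had 13.5, 15.1 and 15.6 CPM in MN1 controls and 0.308, 0.426 and 0.196 CPM in H9M controls, 43.6-fold higher in MN1 (log2 fold change 5.44 ± 0.19, adjusted p = 1.77e-20). ATRA lowered it in MN1 controls to 3.34, 4.27 and 4.72 CPM (-1.87 ± 0.12, adjusted p = 4.84e-13). Knockout lowered it to 8.01, 9.98 and 9.79 CPM (-0.68 ± 0.1, adjusted p = 2.93e-06), and ATRA in knockout cells lowered it further to 4.44, 3.98 and 4.04 CPM (-1.2 ± 0.12, adjusted p = 2.16e-08). The 4 MN1 groups therefore fell into controls, knockout and, lowest and overlapping each other, the 2 ATRA groups, and the knockout effect with ATRA was not called. The MN1 interaction of 0.68 ± 0.17 (adjusted p = 0.0269) was lost in 6 of 18 alternatives, each leaving out 1 library: MN1 control replicate 2 or 3, control with ATRA replicate 1, knockout replicate 1, or knockout with ATRA replicate 1 or 3 (0.54 to 0.7, adjusted p 0.00667 to 0.122 over the 18 alternatives). In H9M knockout cells Col1a2 had no count, at least 7.73-fold lower than in controls against 3 counts over the group (adjusted p = 2.82e-05), and with ATRA 0.0887, 0.0792 and 0.072 CPM from 2 counts each, against 0.33, 0.607 and 0.308 CPM in controls with ATRA (-2.31 ± 0.56, adjusted p = 0.000959). The rise of Col1a2 with ATRA in H9M knockout cells, at least 1.99-fold (adjusted p = 0.0332), was lost when any 1 of the 6 libraries was left out. Here and below, an at-least value sets the other group's mean against a floor of 3 counts and is not a confidence limit.

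Col1a1 (chromosome 11, 94936224 to 94953042), the partner chain, rose after knockout in both models. In H9M cells it went from 0.463, 0.603 and 0.432 CPM in controls to 1.16, 1.8 and 1.87 CPM in knockout cells (log2 fold change 1.7 ± 0.24, adjusted p = 4.89e-07), and with ATRA from 0.587, 0.737 and 0.661 to 1.6, 1.66 and 1.62 CPM (1.3 ± 0.23, adjusted p = 1.88e-05). In MN1 cells it went from 0.151, 0.194 and 0.197 CPM to 1.14, 0.761 and 1.16 CPM without ATRA (2.46 ± 0.31, adjusted p = 7.69e-08), and from 0.36, 0.479 and 0.533 CPM to 0.818, 0.883 and 0.826 CPM with ATRA (0.86 ± 0.27, adjusted p = 0.00639). No knockout library overlapped its controls. ATRA raised it in MN1 controls (1.27 ± 0.36, adjusted p = 0.011), a call lost without MN1 control with ATRA replicate 3 (1.16; adjusted p 0.00945 to 0.0521 over 12 alternatives). The MN1 interaction of -1.6 ± 0.43 (adjusted p = 0.0374) was lost in 12 of 17 alternatives, with adjusted p between 0.0206 and 0.113 over the 17. These were no filter on low counts, the MN1 libraries alone, and leaving out any 1 MN1 library other than control with ATRA replicate 1 and knockout replicate 2. DESeq2 gave this interaction no adjusted p and is not among the 17. Col1a1 was lower in MN1 than in H9M controls (-1.53 ± 0.36, adjusted p = 0.000378), the reverse of Col1a2.

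Of the other fibrillar collagens, Col11a2, a chain of cartilage fibrils also found in other tissues (chromosome 17, 34038919 to 34066684), had 34.5, 39.1 and 40.2 CPM in controls of H9M and 8.83, 11.2 and 9.63 CPM in those of MN1 (log2 fold change -2.02 ± 0.06, adjusted p = 2.1e-22). Within a model its group means stayed between 37.9 and 44.1 CPM in H9M and between 9.88 and 11.7 CPM in MN1. Its knockout effect was called in H9M cells with ATRA (0.2 ± 0.06, adjusted p = 0.00334) and in MN1 cells without ATRA (0.2 ± 0.08, adjusted p = 0.0249). The MN1 libraries overlapped, and the call was lost in 5 of 12 alternatives (no filter on low counts, or without MN1 control replicate 1 or 3 or MN1 knockout replicate 1 or 2; 0.15 to 0.3, adjusted p 0.00247 to 0.116 over all 12). Col5a1, a chain of the collagen that starts type I fibrils, rose in H9M knockout cells from 0.193, 0.071 and 0.0785 to 0.67, 1.16 and 0.732 CPM (2.88 ± 0.56, adjusted p = 8.7e-05). With ATRA the knockout libraries had 0.222, 0.0792 and 0.18 CPM (-2.37 ± 0.53 against untreated knockout cells, adjusted p = 0.00102). In MN1 cells Col5a1 had no count in controls and 0.114, 0.521 and 0.116 CPM in knockout cells, at least 7.34-fold higher (adjusted p = 0.000855). Of the 19 Col5a1 counts in MN1 knockout cells 13 came from replicate 2, and without it the fitted log2 fold change, which depends on the prior count, went from 5.69 to 4.63 (adjusted p = 0.0152). Col5a1 was at least 3.35-fold lower in MN1 than in H9M controls (adjusted p = 0.0108). Col5a3 had 0.679, 0.969 and 1.02 CPM in MN1 controls and 0.496, 0.401 and 0.424 CPM in MN1 knockout cells (-1.02 ± 0.3, adjusted p = 0.00426); its model difference of 0.77 ± 0.29 (adjusted p = 0.0172) was lost in 5 of 10 alternatives, with the replicate block (0.71, adjusted p = 0.111) and without H9M control replicate 2 or 3 or MN1 control replicate 2 or 3 (adjusted p 0.00231 to 0.111 over the 10). Col5a3 overlapped between the models' controls.

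Col6a3 stood out among the beaded-filament collagens because its usual partner chains were scarce. It had no count in any H9M library and 2.41, 3.07 and 3.01 CPM in MN1 controls (chromosome 1, 90766860 to 90844001), at least 75.1-fold higher in MN1 (adjusted p = 1.32e-12). ATRA raised it in MN1 controls to 7.56, 10.6 and 8.56 CPM (log2 fold change 1.62 ± 0.14, adjusted p = 1e-08). Knockout lowered it to 1.11, 1.2 and 1.12 CPM without ATRA (-1.32 ± 0.19, adjusted p = 4.85e-06) and to 2.45, 2.57 and 2.36 CPM with ATRA (-1.88 ± 0.14, adjusted p = 1.88e-10), where ATRA still raised it (1.06 ± 0.2, adjusted p = 0.000526). No 2 of these groups overlapped except controls without ATRA and knockout cells with ATRA. Col6a2, needed in the type VI trimer, had no count in any library, and Col6a1 had no count in H9M and at most 0.534 CPM in an MN1 library. Col6a1 rose with knockout from 0.189, 0.0646 and 0.0983 to 0.534, 0.401 and 0.424 CPM (1.95 ± 0.5, adjusted p = 0.00232), and with ATRA from 0.0327, 0 and 0.0381 to 0.312, 0.201 and 0.0918 CPM, a ratio with a counting interval of 1.94 to 74.2 (adjusted p = 0.00632). Its level in MN1 controls was at least 3.11-fold above H9M controls (adjusted p = 0.00468). Col6a6 was found mainly in H9M cells, with 0.231, 0.248 and 0.471 CPM in controls, 0.67, 0.678 and 0.769 CPM in knockout cells (1.17 ± 0.38, adjusted p = 0.011) and 1.11, 1.51 and 0.937 CPM in knockout cells with ATRA (0.84 ± 0.3 against controls with ATRA, adjusted p = 0.022). The calls of Col6a6 for knockout without ATRA, knockout with ATRA and ATRA in controls (1.09 ± 0.39, adjusted p = 0.0397) were lost in 1, 4 and 7 of 12 alternatives, with adjusted p up to 0.0522, 0.137 and 0.14. The libraries whose removal ended them were H9M control replicate 2 for the first, H9M control with ATRA replicates 2 and 3 and knockout with ATRA replicate 2 for the second, and for the third H9M control replicates 1 and 2 and each replicate with ATRA. In MN1 controls Col6a6 had 1 count in all and its ratio to H9M controls had an interval of 4.52 to 1135 in favour of H9M (adjusted p = 3.47e-05); that count was in replicate 3, and the fitted log2 fold change went from -4.39 to -6.12 without it.

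Col19a1 and Col20a1 are FACIT collagens with opposite model preference. Col19a1 (chromosome 1, 24257683 to 24587922) had 1.21, 1.78 and 2.19 CPM in MN1 controls and no count in H9M controls, at least 45.8-fold higher in MN1 (adjusted p = 2.85e-12). In MN1 knockout cells it was 8.05, 7.01 and 8.13 CPM without ATRA (log2 fold change 2.14 ± 0.16, adjusted p = 2.22e-12) and 8.42, 8.19 and 6.52 CPM with ATRA, against 1.28, 1.09 and 1.07 CPM in controls with ATRA (2.71 ± 0.17, adjusted p = 6.09e-14). Every MN1 knockout library lay above every MN1 control. The fall with ATRA in MN1 controls (-0.62 ± 0.21, adjusted p = 0.0331) came with overlapping libraries and was lost without MN1 control replicate 2 or 3 or control with ATRA replicate 2 or 3 (-0.61 to -0.41; adjusted p 0.00739 to 0.237 over 12 alternatives). In H9M knockout cells it had 0.312, 0.239 and 0.22 CPM, from 7, 6 and 6 counts, at least 6.82-fold above controls (adjusted p = 8.24e-05). With ATRA the H9M ratio had an interval of 1.21 to 381 (adjusted p = 0.0308), with its 1 control count in replicate 1 of the control with ATRA (fitted log2 fold change 2.77, and 4.8 without that library). This call was lost without H9M control with ATRA replicate 2 or 3 or knockout with ATRA replicate 1 or 2 (adjusted p 0.0203 to 0.0951 over 12 alternatives). Col20a1 had 2.04, 1.21 and 1.57 CPM in controls of H9M and 0.0755, 0.129 and 0.197 CPM in those of MN1 (-3.6 ± 0.43, adjusted p = 1.1e-08), and no comparison of knockout or ATRA called it. Col20a1 overlaps Gm30797.

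The multiplexins Col15a1 and Col18a1 are basement membrane collagens, and the end fragment of Col18a1 is known as endostatin. Col18a1 (chromosome 10, 77052178 to 77166530) had 24.4, 24.2 and 22.5 CPM in MN1 controls and 0.655, 0.674 and 0.903 CPM in H9M controls, 29.9-fold higher in MN1 (log2 fold change 4.9 ± 0.15, adjusted p = 4.62e-23). Knockout raised it in MN1 cells to 43, 42.1 and 40.7 CPM (0.82 ± 0.08, adjusted p = 2.23e-10) and with ATRA from 19.5, 18 and 14.9 to 33.8, 33 and 37.7 CPM (0.97 ± 0.08, adjusted p = 1.17e-11). ATRA lowered it in controls (-0.46 ± 0.08, adjusted p = 0.000114) and in knockout cells (-0.31 ± 0.08, adjusted p = 0.00364). The 4 MN1 groups did not overlap, whereas no H9M comparison of knockout or ATRA called Col18a1, and the knockout effect differed between the models by 1.64 ± 0.36 (adjusted p = 0.000716; 2.33 without H9M knockout replicate 3). Col15a1 went from 0.964, 0.994 and 1.3 CPM in H9M controls to 2.63, 2.35 and 2.12 CPM in knockout cells (1.14 ± 0.19, adjusted p = 6.34e-06). With ATRA it had 1.72, 1.3 and 1.76 CPM in controls (0.6 ± 0.2, adjusted p = 0.0272) and 2.66, 2.1 and 2.13 CPM in knockout cells (0.51 ± 0.18, adjusted p = 0.0164). These last calls were lost in 5 and 2 of 12 alternatives (adjusted p up to 0.101 and 0.0958): the first without H9M control replicate 1 or 2 or control with ATRA replicate 1 or 3 or with no filter on low counts, the second without control with ATRA replicate 2 or knockout with ATRA replicate 1. MN1 group means of Col15a1 lay between 1.45 and 1.83 CPM with no call, and 5 annotated RNAs overlap the gene.

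Col25a1 responded to knockout in opposite directions in the 2 models. This transmembrane collagen, whose shed ectodomain is found in amyloid plaques (chromosome 3, 130180358 to 130599884), had 3.01, 2.77 and 2.9 CPM in H9M controls and rose to 8.35, 8.54 and 8.02 CPM in knockout cells (log2 fold change 1.53 ± 0.12, adjusted p = 3.93e-12). In MN1 cells it fell with knockout from 9.13, 10 and 8.52 to 3.51, 3.25 and 3.93 CPM (-1.38 ± 0.11, adjusted p = 1.07e-11). It was higher in MN1 than in H9M controls (1.59 ± 0.12, adjusted p = 2.72e-13). Neither knockout comparison overlapped, and the knockout effects differed by -2.91 ± 0.17 on the log2 scale (adjusted p = 8.97e-15). In H9M knockout cells with ATRA it was back at 2.57, 3.49 and 3.1 CPM (-1.41 ± 0.12, adjusted p = 8.01e-11), near the 2.57, 1.91 and 3.08 CPM of controls with ATRA, with a knockout by ATRA interaction of -1.25 ± 0.19 (adjusted p = 4.89e-05). In MN1 knockout cells with ATRA it was 2.49, 2.21 and 2.2 CPM, against 7.43, 7.11 and 7.31 CPM in controls with ATRA (-1.68 ± 0.12, adjusted p = 9.07e-13). ATRA lowered it in MN1 knockout cells (-0.67 ± 0.14, adjusted p = 0.000824) and in MN1 controls (-0.36 ± 0.1, adjusted p = 0.00769), the latter not without MN1 control replicate 2 (-0.3; adjusted p 0.00357 to 0.0549 over 12 alternatives).

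The other tested transmembrane collagens were low. Col13a1, found at cell adhesions and the neuromuscular junction, had no count in H9M libraries and 0.905, 0.71 and 0.721 CPM in MN1 controls, at least 20.7-fold higher in MN1 (adjusted p = 2.24e-07). ATRA raised it to 2.52, 2.39 and 2.97 CPM in controls (log2 fold change 1.73 ± 0.25, adjusted p = 2.62e-05) and in knockout cells from 0.153, 0.441 and 0.0771 to 0.818, 0.883 and 1.13 CPM (2.05 ± 0.4, adjusted p = 0.000663). MN1 knockout replicate 2 held 11 of the 17 Col13a1 counts of its group. Knockout lowered it without ATRA (-1.79 ± 0.41, adjusted p = 0.000767; -2.7 without that library) and with ATRA (-1.47 ± 0.25, adjusted p = 2.49e-05), and the ATRA effect in knockout cells was 2.96 without that library. Col13a1 and Col6a3 moved in the same directions in the 4 MN1 comparisons. Col23a1 reached at most 0.587 CPM in a library. It rose with knockout in MN1 cells from 0.0377, 0.0646 and 0.0655 to 0.267, 0.401 and 0.385 CPM (2.52 ± 0.52, adjusted p = 0.000129) and was lower in MN1 than in H9M controls (-1.74 ± 0.59, adjusted p = 0.0123). Its rise with ATRA in H9M controls (1.23 ± 0.4, adjusted p = 0.0223) was lost in 5 of 10 alternatives, among them without H9M control replicate 1 or 2 or control with ATRA replicate 1 (0.91 to 1.42; adjusted p 0.0155 to 0.198). DESeq2 gave this rise no adjusted p and is not among the 10.

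The 2 members outside the main classes, Col26a1 and Col28a1, were also higher in MN1 cells. Col26a1 had 0.679, 0.807 and 0.721 CPM in MN1 controls and 0.385, 0.284 and 0.157 CPM in H9M controls (log2 fold change 1.31 ± 0.38, adjusted p = 0.00277). ATRA raised it in MN1 controls to 1.93, 1.54 and 1.75 CPM (1.21 ± 0.26, adjusted p = 0.00106), and knockout cells with ATRA had 0.234, 0.522 and 0.245 CPM (-2.42 ± 0.31, adjusted p = 9.52e-08). In H9M cells ATRA gave 0.587, 0.867 and 0.484 CPM in controls (1.25 ± 0.4, adjusted p = 0.0214), and knockout cells with ATRA had 2 counts in all, a ratio with an interval of 6.37 to 207 in favour of controls (adjusted p = 1.69e-06). The H9M call for ATRA in controls was lost without control replicate 2 or 3 or control with ATRA replicate 2 (adjusted p 0.0164 to 0.129 over 12 alternatives). The H9M call for knockout without ATRA (-1.5 ± 0.61, adjusted p = 0.0398) was lost without control replicate 1 or 2 or knockout replicate 2, with the libraries of H9M alone and with the replicate block (adjusted p 0.0208 to 0.198 over 12 alternatives). Col28a1, a collagen of peripheral nerve, had 1.62, 1.81 and 1.83 CPM in MN1 controls and 0.193, 0.106 and 0.275 CPM in H9M controls (3.1 ± 0.3, adjusted p = 1.25e-10). In untreated MN1 knockout cells it was 0.839, 0.882 and 1.04 CPM (-0.93 ± 0.22, adjusted p = 0.000473) and with ATRA 1.79, 1.89 and 1.38 CPM (0.81 ± 0.22 against untreated knockout cells, adjusted p = 0.00815). Col7a1 of anchoring fibrils had group means of 0.164 to 0.488 CPM and was called in no comparison, with an adjusted p of 0.0516 at the lowest (H9M ATRA in knockout cells, log2 fold change 1.4).

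Genes that act on collagen were counted from lists of the enzymes and chaperones that modify and secrete it, its receptors, the proteases that cut it and regulators of its transcription. Of the 37 genes of modification and secretion 29 were tested. Knockout called 11 higher and 4 lower in H9M cells and 15 higher and 3 lower in MN1 cells without ATRA, and 10 and 4, and 10 and 7, with ATRA. The share of the list called in either direction was 51.7% and 62.1% without ATRA and 48.3% and 58.6% with it. It lay near the 51.5%, 55%, 51.1% and 57.2% of all tested genes. The share called higher was 37.9% (H9M) and 51.7% (MN1) without ATRA, beside 26.1% and 28.7% of all tested genes. With ATRA it was 34.5% in each model, beside 26.7% (H9M) and 28.6% (MN1). ATRA called 4 higher and 5 lower in H9M controls, 3 and 6 in H9M knockout cells, 9 and 4 in MN1 controls and 2 and 9 in MN1 knockout cells. These are shares of 31%, 31%, 44.8% and 37.9%, beside 25.2%, 29.4%, 21.8% and 18.8% of all tested genes. Sparc, a collagen-binding matrix protein, rose from 2.37 ± 0.331 to 16.2 ± 1.57 CPM in MN1 knockout cells (log2 fold change 2.76 ± 0.12, adjusted p = 1.9e-15). Plod1, a lysyl hydroxylase of collagen, fell from 102 ± 1.52 to 70 ± 1.31 CPM in H9M (-0.54 ± 0.04, adjusted p = 7.45e-13) and from 101 ± 0.4 to 57.5 ± 1.47 CPM in MN1 knockout cells (-0.83 ± 0.04, adjusted p = 3.07e-17). P4ha2, a prolyl hydroxylase subunit, rose with ATRA in H9M knockout cells from 24 ± 1.47 to 40.6 ± 2.29 CPM (0.78 ± 0.08, adjusted p = 3.75e-09).

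Most tested proteases rose after knockout. Of 14 collagen-degrading enzymes 9 were tested; knockout called 8 higher and 0 lower in H9M cells both without and with ATRA (median log2 fold change 1.27 and 0.89) and 7 higher and 0 lower in MN1 cells (2.7 and 2.84), beside medians of 0 to 0.01 over all tested genes. Called higher were thus 88.9% of the tested proteases in H9M and 77.8% in MN1, beside 26.1% and 26.7% (H9M, without and with ATRA) and 28.7% and 28.6% (MN1) of all tested genes. The list is small and was chosen with earlier results known, so this is a description. Ctss, a lysosomal cathepsin, rose from 0.599 ± 0.219 to 78.9 ± 3.79 CPM in H9M knockout cells (log2 fold change 7.04 ± 0.13, adjusted p = 5.42e-28). Mmp8, the neutrophil collagenase, rose in MN1 knockout cells from 12.3 ± 0.663 to 438 ± 20 CPM (5.15 ± 0.07, adjusted p = 4.22e-31). Mmp9, a gelatinase, rose with ATRA in H9M knockout cells from 1.98 ± 0.628 to 268 ± 20.1 CPM (7.09 ± 0.11, adjusted p = 1.49e-28). ATRA called 3 proteases higher and 2 lower in H9M controls, 2 and 3 in H9M knockout cells, 1 and 3 in MN1 controls and 2 and 3 in MN1 knockout cells. These are shares of 55.6%, 55.6%, 44.4% and 55.6%, beside the 25.2%, 29.4%, 21.8% and 18.8% of all tested genes.

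Of 13 collagen receptors 8 were tested, and knockout called 4 higher and 1 lower in H9M cells and 4 higher and 0 lower in MN1 cells, with the same counts with ATRA. These shares called in either direction, 62.5% in H9M and 50% in MN1, lay near the 51.1% to 57.2% of all tested genes. Called higher were 50% in each model, beside 26.1% to 28.7% of all tested genes. With 8 receptors tested this is a description. Itga1, the collagen-binding integrin subunit, rose from 1.52 ± 0.459 to 46 ± 1.5 CPM in H9M knockout cells (log2 fold change 4.94 ± 0.13, adjusted p = 6.47e-23), and ATRA lowered it there to 6.47 ± 0.248 CPM (-2.81 ± 0.1, adjusted p = 5.96e-19). Ddr1, a collagen-activated receptor kinase, rose from 0.486 ± 0.146 to 1.33 ± 0.092 CPM in MN1 knockout cells (1.44 ± 0.27, adjusted p = 4.66e-05). ATRA called 2 receptors higher and 2 lower in both H9M comparisons, 1 and 2 in MN1 controls and 1 and 1 in MN1 knockout cells, or 50%, 50%, 37.5% and 25% of the 8. Of 19 regulators of collagen transcription and TGF-beta signalling 16 were tested, with 7 higher after knockout in each model and 5 (H9M) and 2 (MN1) lower without ATRA, and 4 and 2 lower with it. The called shares were 75% and 68.8% in H9M and 56.2% in both MN1 comparisons. ATRA called 5 higher and 2 lower in H9M controls, 7 and 3 in H9M knockout cells, 4 and 4 in MN1 controls and 5 and 4 in MN1 knockout cells, or 43.8%, 62.5%, 50% and 56.2%, beside the same background of 25.2%, 29.4%, 21.8% and 18.8%. Smad3, a regulator named outside the rule for the other lists, which carries TGF-beta signals to collagen promoters, rose with ATRA in H9M controls from 17.5 ± 0.736 to 59.7 ± 1.21 CPM (1.81 ± 0.06, adjusted p = 6.87e-21) and in MN1 controls from 9.96 ± 0.371 to 37.2 ± 3.03 CPM (1.88 ± 0.06, adjusted p = 7.44e-20).

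Dimethylation of histone H3 lysine 4 (H3K4me2), which LSD1 can remove and which is found at promoters in use or held ready, was measured by ChIP-seq in lineage-negative bone marrow of a GFI1-WT and a GFI1-KD sample, with 1 library each, so no test is possible. GFI1 is a repressor that recruits LSD1. These are other cells than the H9M and MN1 lines, and how the GFI1-KD mice were made is not stated. Reads of mapping quality at least 10 within 1 kb of each annotated start were counted, and levels are given as RPM, reads on a per-million scale of the kept reads. Over the 35 separate regions of the members, GFI1-WT had 1282 reads (143 RPM) and GFI1-KD 1631 reads (171 RPM), a ratio of 1.19 with a 95% counting interval of 1.11 to 1.29 that covers counting error only. Over all starts above a minimum of GFI1-WT reads, the median of the single-start ratios was 0.961. The members' 1.19 is a ratio of summed reads, in which starts with many reads weigh more, so these are unlike measures. The median level at the 38 member starts was 1.49 RPM (mean of both libraries) against 2.7 over all starts, and 16 of 38 lay above the latter. The 20 starts of members tested in the RNA data had a median of 2.4 RPM, and 10 lay above the 2.7 of all starts. The 18 starts of untested members had a median of 1.37 RPM, and 6 lay above 2.7.

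The highest member starts were those of Col23a1 (166 reads in GFI1-WT, 221 in GFI1-KD), Col27a1 (132 and 243), the shared Col4a1 and Col4a2 start region and Col5a1 (100 and 154). At the Col4a2 start, printed above, there were 99 and 166 reads, or 11.1 RPM (95% interval 8.99 to 13.5) and 17.4 RPM (14.9 to 20.3), a ratio of 1.57 (1.22 to 2.04), and the Col4a1 window counts mostly the same reads. Col25a1 had 95 and 73 reads (10.6 and 7.65 RPM), a ratio of 0.721 (0.524 to 0.988), and Col1a2 had 42 and 26 reads (4.69 and 2.73 RPM), a ratio of 0.581 (0.342 to 0.97). Col6a3, high only in MN1 cells, had 3 and 6 reads. Of the members without an RNA count, Col8a2 had 66 and 70 reads at its start and Col3a1 had 0 and 1. A mark at a start in bone marrow therefore did not go with detection in the lines for every gene.

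**Figure D5:**
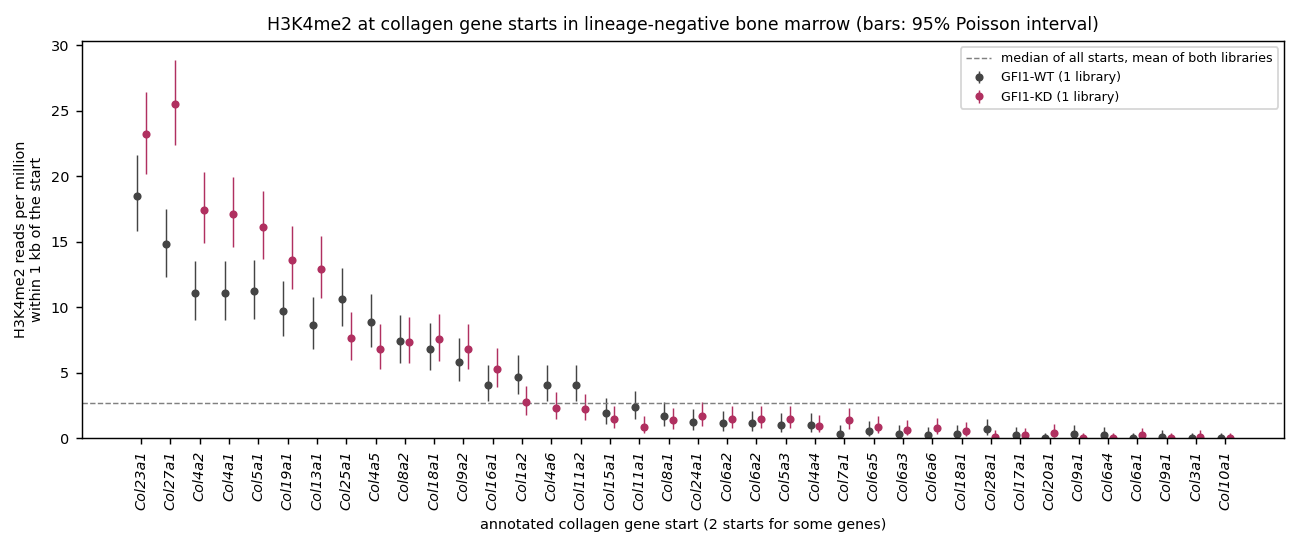
H3K4me2 RPM within 1 kb of each collagen gene start (y axis) in GFI1-WT (grey) and GFI1-KD (red), 1 library each, with exact 95% Poisson bars for counting error; the x axis lists the 38 starts. The dashed line is the median of all starts, 2.7, and Col23a1, Col27a1 and the Col4a1 and Col4a2 pair lie highest.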

How the data were processed

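RNA libraries were stranded total RNA read as 100-base pairs, per the labels' protocols, and aligned to mm10 with STAR 2.5.3, per the submitters' processing notes. The deposited table holds whole-number counts per gene and library; for the counting tool, annotation and strand, the sources used here give nothing. ChIP reads were processed by the authors with CASAVA 1.8.2, BWA and bedtools 2.27.0, per the submitters' processing notes; the score deposited with each read is its mapping quality, used only as a filter (8949072 of 9000433 and 9538627 of 9588899 reads were kept, at most 1 per position and strand).

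Symbols matched 48349 Ensembl IDs and 446 did not match. Counts were fitted in edgeR 4.0.16 (R 4.3.3) by its quasi-likelihood test, with TMM scaling and filterByExpr, in 1 model of 8 groups (24 libraries, 16 residual degrees of freedom, common coefficient of variation 4.01%). This left 14663 genes. P-values are two-sided and Benjamini-Hochberg adjusted within each of 13 comparisons over all genes tested, and a gene was called under 0.05. Fold changes follow the TMM scaling and can differ slightly from ratios of CPM. The SE of a log2 fold change is its size divided by the square root of the test's F, an approximation. A group at 0 was given a floor of 3 counts over the group, and the mean of the other group was taken without an error. The at-least values so obtained are not confidence limits. Ratios with 1 to 3 counts have 95% counting intervals, which cover counting error only. The script was tested on simulated data. Replicates differed beyond sampling noise, and none was counted as a copy.

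All members expressed or called were named, and context genes were named by the smallest adjusted p, at most 3 per list and comparison, of which examples are printed; the regulators were added outside that rule. The members and lists were chosen with earlier results of these data known. Alternatives were RLE scaling, DESeq2 1.42.0, other filters, the libraries of 1 model, a replicate block and leaving out each library. Coordinates and starts are RefSeq on GRCm38.p6; exon lengths were not used here.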

Additional observations from a re-analysis of the deposited data

Results flagged for a closer look

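The knockout by ATRA interaction, a test of whether ATRA acts differently in knockout and control cells, was called in H9M for Col14a1 (6.77 ± 1.84 on the log2 scale, adjusted p = 0.0274), Col4a2 (0.37 ± 0.06, adjusted p = 0.000278) and Col25a1 (-1.25 ± 0.19, adjusted p = 4.89e-05). In MN1 it was called for Col1a1 (-1.6 ± 0.43, adjusted p = 0.0374), Col1a2 (0.68 ± 0.17, adjusted p = 0.0269), Col4a1 (-0.38 ± 0.06, adjusted p = 0.00039) and Col4a2 (0.82 ± 0.11, adjusted p = 1.45e-05). Of these, Col4a2 was called in both models with the same sign. The interaction of Col14a1 was lost in 3 of 18 alternatives, that of Col1a1 in 12 of 17 and that of Col1a2 in 6 of 18. The other interactions were lost in none.

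The knockout effect without ATRA was higher in MN1 than in H9M for Col1a2 (difference 5.45 ± 1.18, adjusted p = 0.000685), Col23a1 (2.42 ± 0.72, adjusted p = 0.0115; 3.06 without H9M knockout replicate 3), Col4a1 (2.05 ± 0.17, adjusted p = 3.55e-11), Col18a1 (1.64 ± 0.36, adjusted p = 0.000716) and Col4a2 (1.25 ± 0.09, adjusted p = 4.4e-12). The Col1a2 value depends on the prior count, since H9M knockout cells had no count of it. The effect was lower in MN1 for Col19a1 (-3.7 ± 1.33, adjusted p = 0.0367), Col25a1 (-2.91 ± 0.17, adjusted p = 8.97e-15), Col28a1 (-1.92 ± 0.47, adjusted p = 0.00222) and Col15a1 (-0.81 ± 0.26, adjusted p = 0.019). The Col19a1 value depends on the prior count in the same way, with no count in H9M controls. The calls of Col19a1, Col15a1 and Col23a1 were lost in some alternatives, which are listed below.

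The ATRA effect in controls was lower in MN1 than in H9M for Col1a2 (-2.29 ± 0.43, adjusted p = 0.000364) and Col4a1 (-0.76 ± 0.12, adjusted p = 4.6e-05). Each of these differences between the models also goes with the code in the library identifiers.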

How the results depend on the processing

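Of the 109 calls of a member in a comparison, 87 stayed called with the same direction under every alternative run and 22 were lost in at least 1, none with a reversed direction. Calls were lost with RLE scaling or the stricter filter in 0 of 116 and 0 of 102 values, with DESeq2 in 2 of 114 and with no filter in 7 of 116. The libraries of 1 model lost 3 of 86, the replicate block 3 of 116 and single libraries left out 74 of 804. The cause was not tested. These totals also hold pairs not called in the main fit, which had no call to lose. DESeq2 gave no adjusted p for Col23a1 with ATRA in H9M controls and for Col1a1 in the MN1 interaction. Those pairs are not among the 114 and also did not stay called with DESeq2. With these alternatives, other than leaving out a library, each count of called members stayed within 1.5 times its value. The members tested were 38 with no filter and 16 with the stricter filter, and the members called could change. With no filter, ATRA in H9M controls called 4 members, of which 3 were among the 6 of the main fit. With 1 library left out, the counts ranged as follows. H9M knockout gave 8 to 13 without ATRA and 6 to 9 with it, H9M ATRA 1 to 5 in controls and 5 to 6 in knockout cells, and the H9M interaction 2 to 4. MN1 knockout gave 14 to 15 and 10 to 11, MN1 ATRA 7 to 9 and 7 to 8, and the MN1 interaction 2 to 4. Between the models the counts were 18 to 19 for controls, 7 to 9 for the knockout effect and 2 to 3 for the ATRA effect. For the knockout effect between the models, Col15a1 was lost with no filter and without H9M control replicate 1 or 2 (adjusted p 0.0116 to 0.0522 over 17 alternatives). Col19a1 was lost with the replicate block, without any 1 H9M control and without H9M knockout replicate 1 (0.019 to 0.0969 over 17), and Col23a1 with no filter (0.00329 to 0.0565 over 16).

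Same-numbered libraries did not deviate together (correlations of -0.08 to 0.07 in H9M and -0.03 to 0.08 in MN1, 18 pairs each), so the numbers were not taken as pairing. The replicate block gave 9, 9, 6 and 7 called members in H9M, 15, 10, 9 and 7 in MN1, 3 and 4 for the interactions and 18, 8 and 2 between the models. The H3K4me2 ratio was 1.19 also with a 2 kb window. A mapping quality of at least 30 and keeping duplicates left the same reads in the regions, so these settings say nothing about its stability. Members below 0.1 CPM rest on a few counts per library, and small changes in them were not detectable at this depth.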
